A study of Rattus norvegicus with 15 samples.

Results

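The genes described are steroid receptors and markers of the hormone-sensing luminal cells of the mammary gland in rats. They are the estrogen receptor gene Esr1, the progesterone receptor gene Pgr, the transcription factor genes Foxa1, Gata3 and Xbp1, the coregulator genes Cited1 and Greb1, and the paracrine signal genes Wnt4 and Tnfsf11. They were chosen by gene symbol in the annotation of the deposited array table. That rule found 8 of the 9 named genes, on 14 of the 31042 probe sets tested (14239 genes have an identifier there). Greb1 is not listed under its symbol. The deposited Entrez identifier leads to 1 probe set for it, 1378792_at, which was called present on 0 of 15 arrays, so no size of change is given for Greb1.

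RNA came from the whole left inguinal gland of 15 female Lewis rats, virgin and 3 months old at the start, and was hybridised to Affymetrix arrays, with 5 rats per group and 1 array per rat. Pregnancy rats bore sham capsules while they carried a litter to term (21 to 23 days), and lost their pups 4 to 6 hours after delivery, before suckling. Hormone rats bore 2 silastic capsules for 21 days, which held the estrogen ethynyl estradiol (100 µg) and the progestin megestrol acetate (30 mg). Control rats carried sham capsules for 21 days. All 15 rats then rested for about 49 days without treatment and were killed in metestrus, so the values describe the gland long after the exposure, at one stage of the cycle.

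In the adult gland a minority of luminal cells hold the estrogen and progesterone receptors and pass the hormone signal on to neighbouring cells that lack them. FOXA1 opens chromatin for the estrogen receptor, GATA3 maintains luminal identity, and the progesterone receptor gene is itself induced by estrogen. Progesterone acts on the neighbours through secreted WNT4 and through RANKL, the product of Tnfsf11.

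The array values are log2 expression after RMA normalisation, and a difference of 1 is a doubling. Each gene is represented by its brightest probe set, and levels of different probe sets are not set against each other. Between 65.3% and 68.3% of probe sets were called present per array, by detection calls that test the probes against mismatched ones, and array medians lay between 7.70 and 7.77. All 10 luminal markers were called present on 15 of 15 arrays, as were all 8 basal and 7 measured milk genes. Some arrays also had high levels of lymph node or skeletal muscle markers, and the origin of that RNA was not tested. On control replicates 1, 4 and 5 and pregnancy replicate 3, the 10 measured lymph node and T cell markers averaged 2.01 to 2.44 on a log2 scale set to 0 at the 15-array mean, against −1.51 to 0.59 on the other 11 arrays. The skeletal muscle list (4 of 6 markers measured) stood at 2.52 and 2.88 in pregnancy replicates 7 and 9 and at 4.36 in hormone replicate 4.

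No gene of the set passed the test in any comparison. The promoters of Pgr and Cited1 are shown because these 2 genes were among those that spread most among rats. They are RefSeq windows of 250 bases before to 50 after the start of the gene on build GRCr8, read 5′ to 3′ along the gene. Pgr lies on the plus strand at chr8:14354148-14354447 and Cited1 on the minus strand at chrX:71394974-71395273. Capitals mark the half-site of the estrogen response element, GGTCA or its reverse complement TGACC.
Pgr: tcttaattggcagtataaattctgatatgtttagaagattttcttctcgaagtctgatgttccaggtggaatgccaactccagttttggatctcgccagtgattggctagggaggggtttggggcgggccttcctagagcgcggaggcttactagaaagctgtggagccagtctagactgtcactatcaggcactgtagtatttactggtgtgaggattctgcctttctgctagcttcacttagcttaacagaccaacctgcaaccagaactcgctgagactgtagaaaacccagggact
Cited1: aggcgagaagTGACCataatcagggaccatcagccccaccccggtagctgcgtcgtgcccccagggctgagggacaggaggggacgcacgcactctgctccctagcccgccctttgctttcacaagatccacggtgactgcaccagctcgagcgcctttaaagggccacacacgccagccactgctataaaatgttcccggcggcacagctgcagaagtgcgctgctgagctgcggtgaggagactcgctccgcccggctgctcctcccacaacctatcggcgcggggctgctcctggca
The Pgr window held none of these half-sites. The Cited1 window held 1, its first base 240 bases upstream of the start.

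Windows were found for 7 of the 9 genes, those of Esr1, Pgr, Gata3, Wnt4, Tnfsf11, Cited1 and Xbp1. Only the Cited1 and Gata3 windows held the half-site, the one of Gata3 beginning 207 bases upstream. Of all 27457 windows of this length, 40.2% held it on either strand. The full element GGTCANNNTGACC (0.0255% of all windows), the forkhead core TGTTTAC (3.76%), the GATA core AGATAA (11.3%) and the progesterone and glucocorticoid half-site TGTTCT (20.1%) had no match on either strand in the 7 windows. The full element holds the half-site on both strands. A match is a string of letters and no proof of binding, and no match says only that these letters are not in the window.

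The pregnancy group addresses whether an earlier pregnancy left the hormone-sensing genes at another level. Of the 8 genes measured, 0 passed in pregnancy minus control at a Benjamini-Hochberg adjusted p under 0.05 in limma, where 0.197% of all probe sets did. At an unadjusted p under 0.05 there were 2, Cited1 and Xbp1, against 21.9% of all probe sets. After pregnancy 3 genes were higher and 5 lower than in controls, with a median difference of −0.08 against 0.02 over all probe sets. The adjusted p-values ran from 0.103 to 0.952, and the pregnancy and control rats overlapped for each of the 8 genes, while 4.23% of all probe sets did not overlap. The authors' deposited table, which calls 0.966% of probe sets in this comparison, gives these genes no adjusted p under 0.05 either (the lowest is 0.115, for Xbp1).

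The hormone group addresses the same for the capsules. In hormone minus control 0 of 8 passed in limma, where 0.029% of all probe sets did, and 3 had an unadjusted p under 0.05, Esr1, Gata3 and Tnfsf11, against 20.7% of all probe sets. There 2 genes were higher and 6 lower, with a median of −0.10 against 0.03 over all probe sets, and adjusted p-values ran from 0.159 to 0.956. In pregnancy minus hormone 0 of 8 passed in limma (0.00322% of all probe sets did), and only Gata3 had an unadjusted p under 0.05, against 9.96% of all probe sets. Of the 8 genes, 5 were higher and 3 lower in pregnancy rats, with a median of 0.07 against −0.0021 over all probe sets. No gene separated its groups in these 2 comparisons, as against 2.79% and 2.81% of all probe sets. The authors' deposited table calls 0.0161% of probe sets in hormone minus control and none of these genes, with 0.184 (Gata3) as the lowest adjusted p. The comparisons with control share the same 5 control rats.

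**Figure D1:**
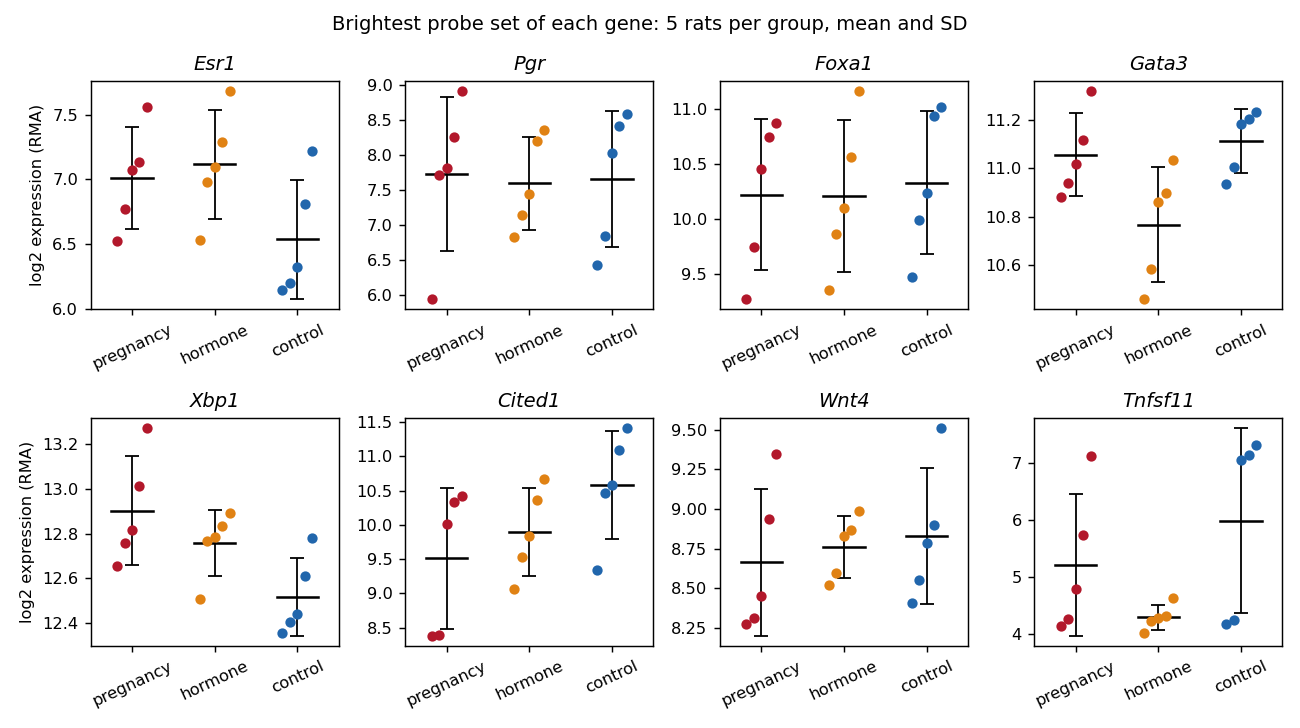
Log2 expression of the 8 measured genes (brightest probe set of each) in single rats, with 5 pregnancy, 5 hormone and 5 control rats per panel. Points are rats, the horizontal line is the group mean and the bar its SD. The groups overlap in every panel, and Pgr, Cited1 and Tnfsf11 spread over about 3 log2 units.

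Esr1 encodes estrogen receptor alpha. Its brightest probe set, 1387704_at, was called present on 5 of 5 pregnancy, 4 of 5 hormone and 3 of 5 control arrays. It read 6.53, 7.07, 7.13, 7.56 and 6.77 in the pregnancy rats (replicates 1, 2, 3, 7 and 9) and 7.68, 7.09, 6.98, 6.54 and 7.29 in the hormone rats (replicates 1 to 5), against 6.20, 6.81, 6.32, 7.22 and 6.15 in the control rats (replicates 1, 2, 4, 5 and 6). Most exposed rats lay above 4 of the controls, and control replicate 5 lay among them.

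The Esr1 mean was 7.01 ± 0.39 after pregnancy and 7.12 ± 0.42 after hormone, against 6.54 ± 0.46 in controls (SD, n = 5 each). It was 0.47 higher in pregnancy than control rats (SE 0.24, 95% interval −0.05 to 0.99, adjusted p = 0.267) and 0.58 higher in hormone than control rats (SE 0.24, interval 0.05 to 1.10, adjusted p = 0.209), neither past the threshold in limma. Pregnancy minus hormone was −0.10 (adjusted p = 0.913). In whole gland, fewer cells of a type and less RNA per cell cannot be told apart, for Esr1 and for the genes that follow. The other Esr1 probe set, 1384868_at, was dimmer, was called present on 8 of 15 arrays, and gave −0.19 for pregnancy minus control and −0.03 for hormone minus control, so the probe sets of the gene disagree in direction.

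Pgr encodes the progesterone receptor. Its brightest probe set, 1387563_at, was called present on 15 of 15 arrays, at 8.91, 5.94, 8.26, 7.81 and 7.71 in pregnancy rats and 7.14, 8.36, 7.44, 8.20 and 6.83 in hormone rats, against 6.84, 8.02, 8.41, 6.42 and 8.59 in control rats. The lowest and the highest rat of all were both in the pregnancy group, and the hormone rats lay between 6.83 and 8.36. All rats were killed in metestrus, and the range of 1387563_at over the 15 rats was 2.97 log2 units, a 7.81-fold span. What lies behind this spread was not tested.

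Group means of Pgr were 7.73 ± 1.10 after pregnancy, 7.60 ± 0.66 after hormone and 7.66 ± 0.97 in controls (SD, n = 5 each). The difference was 0.07 for pregnancy minus control (SE 0.53, interval −1.07 to 1.21, adjusted p = 0.952) and −0.06 for hormone minus control (SE 0.53, interval −1.20 to 1.08, adjusted p = 0.956, limma). Those intervals still hold a doubling and a halving of Pgr, so a change of that size was not detectable with 5 rats per group. Without the 4 lymphoid-rich arrays both differences were −0.71, with only control replicates 2 and 6 left as controls, at 8.02 and 8.59. The probe sets 1380781_at and 1389701_at gave −0.14 and −0.09 for pregnancy minus control and −0.05 and −0.0016 for hormone minus control.

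Foxa1, the gene of the pioneer factor of the estrogen receptor, was called present on 15 of 15 arrays with 1382848_at. It read 9.74, 10.75, 9.27, 10.88 and 10.46 in pregnancy rats and 10.10, 9.35, 10.57, 9.86 and 11.16 in hormone rats, against 10.24, 10.94, 9.47, 11.02 and 9.99 in control rats. High and low rats occurred in all 3 groups alike. Means were 10.22 ± 0.69 after pregnancy, 10.21 ± 0.69 after hormone and 10.33 ± 0.65 in controls (SD, n = 5 each), with −0.11 for pregnancy minus control (SE 0.39, interval −0.94 to 0.72, adjusted p = 0.886) and −0.12 for hormone minus control (adjusted p = 0.873) in limma. Its other probe set was called present on 1 of 15 arrays.

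Gata3 encodes the zinc finger factor that keeps luminal cells differentiated. With 1382163_at it read 11.12, 10.94, 10.88, 11.32 and 11.02 in pregnancy rats and 10.46, 10.58, 10.90, 11.03 and 10.86 in hormone rats, against 10.94, 11.18, 11.01, 11.23 and 11.20 in control rats. Of the hormone rats, 4 of 5 lay below every control, while the pregnancy rats lay among the controls. With this probe set Gata3 had the narrowest range of the 8 genes, 0.858 log2 units over the 15 rats. Its other probe set, 1369525_at, ranged over 1.56 log2 units.

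The Gata3 mean was 11.06 ± 0.17 after pregnancy and 10.77 ± 0.24 after hormone, against 11.11 ± 0.13 in controls (SD, n = 5 each). Hormone minus control was −0.35 (SE 0.11, interval −0.58 to −0.11, adjusted p = 0.159) and pregnancy minus control −0.06 (SE 0.11, adjusted p = 0.791, limma). Pregnancy minus hormone was 0.29 (SE 0.11, adjusted p = 0.445). The other probe set, 1369525_at, also present on 15 of 15 arrays, gave −0.33 for hormone minus control (adjusted p = 0.316) and 0.60 for pregnancy minus hormone (adjusted p = 0.391), but 0.27 for pregnancy minus control, the opposite sign. With the adipocyte list as a covariate, the hormone minus control difference of Gata3 was −0.15.

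Xbp1 encodes a transcription factor of the secretory pathway and of the unfolded protein response, which is expressed with the estrogen receptor in luminal cells and strongly in plasma and milk-secreting cells. Its single probe set, 1371249_at, read 12.82, 12.76, 12.66, 13.27 and 13.01 in pregnancy rats and 12.79, 12.51, 12.77, 12.83 and 12.89 in hormone rats, against 12.40, 12.61, 12.44, 12.36 and 12.78 in control rats. In each exposed group 3 of 5 rats lay above every control, and control replicate 6 lay among them.

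The Xbp1 mean was 12.90 ± 0.24 after pregnancy and 12.76 ± 0.15 after hormone, against 12.52 ± 0.17 in controls (SD, n = 5 each). Pregnancy minus control was 0.38 (SE 0.12, interval 0.14 to 0.63, adjusted p = 0.103, limma), the smallest adjusted p of the set in that comparison, and hormone minus control 0.24 (SE 0.12, interval −0.01 to 0.49, adjusted p = 0.252). Without the 4 lymphoid-rich arrays, pregnancy minus control was 0.27 and hormone minus control 0.06. The only controls left there were replicates 2 and 6, the highest of the controls at 12.61 and 12.78. Milk genes ran the same way: the mean of the 7 measured alveolar and milk markers (of 8) lay at 0.25 to 0.94 in pregnancy rats and −1.04 to 0.70 in hormone rats, against −1.04 to −0.06 in controls. The 4 measured plasma cell markers (of 6) lay at 0.04 to 0.80 in pregnancy rats and −1.04 to 0.51 in hormone rats, against −1.26 to 0.72 in controls. No marker was called absent on all arrays in either list, and the part of these cells in the Xbp1 values was not tested.

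Cited1 encodes a coactivator that binds no DNA itself and works with the estrogen receptor. Its probe set, 1370805_at, read 8.39, 10.42, 8.40, 10.33 and 10.02 in pregnancy rats and 9.84, 9.06, 10.36, 9.53 and 10.66 in hormone rats, against 10.58, 11.09, 9.34, 11.41 and 10.47 in control rats. Pregnancy replicates 1 and 3 lay below every other rat, and 2 of 5 pregnancy rats lay below every control. The range over the 15 rats was 3.03 log2 units.

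The Cited1 mean was 9.51 ± 1.03 after pregnancy and 9.89 ± 0.64 after hormone, against 10.58 ± 0.79 in controls (SD, n = 5 each). Pregnancy minus control was −1.07 (SE 0.48, interval −2.09 to −0.05, adjusted p = 0.211) and hormone minus control −0.69 (SE 0.48, interval −1.71 to 0.34, adjusted p = 0.412, limma). Pregnancy minus hormone was −0.38 (adjusted p = 0.819). None passed the threshold, and pregnancy minus control ran from −1.38 to −0.79 when each array was left out in turn. Pregnancy minus hormone ran from −0.61 to −0.10, the last without pregnancy replicate 1 or 3.

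**Figure D2:**
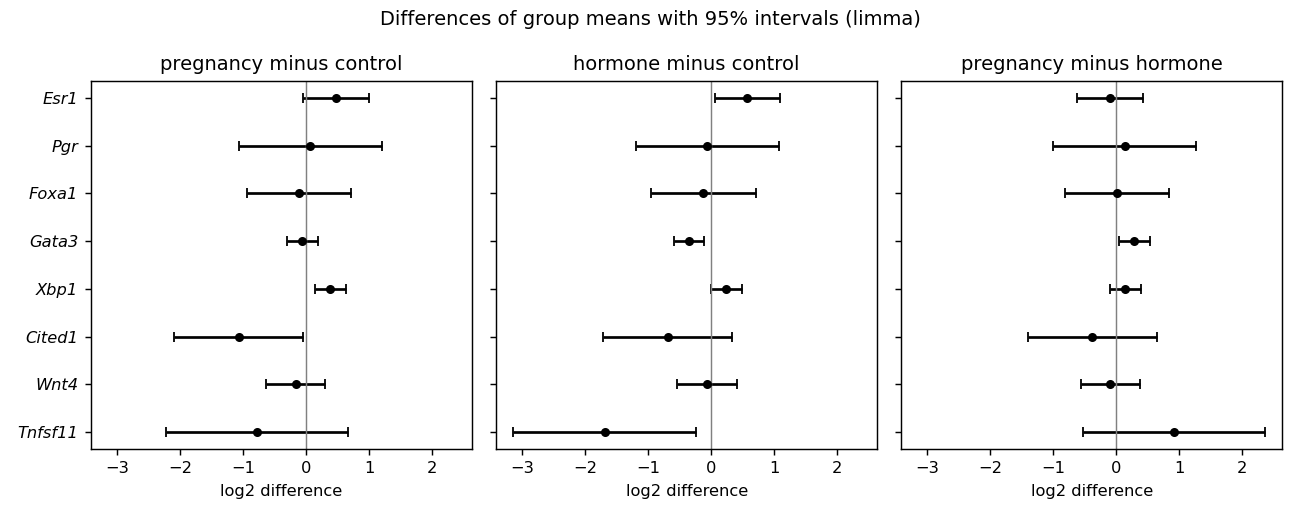
Differences of group means on the log2 scale for the 8 genes, with limma's 95% intervals. The left panel sets pregnancy against control, the middle one hormone against control, and the right one pregnancy against hormone. Points are estimates from 5 rats per group. The intervals of Gata3 and Xbp1 are narrow, and those of Pgr, Cited1 and Tnfsf11 are wide. Intervals are not adjusted for multiple tests.

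Of the paracrine signals, Wnt4 is the secreted ligand that progesterone induces. With 1368641_at, called present on 15 of 15 arrays, it read 8.94, 8.45, 8.28, 9.35 and 8.31 in pregnancy rats and 8.60, 8.52, 8.83, 8.99 and 8.87 in hormone rats, against 8.41, 8.90, 8.55, 8.79 and 9.51 in control rats. The hormone rats lay within the span of both other groups. Means were 8.66 ± 0.46 after pregnancy and 8.76 ± 0.19 after hormone, against 8.83 ± 0.43 in controls (SD, n = 5 each). Pregnancy minus control was −0.16 (SE 0.22, adjusted p = 0.677), hormone minus control −0.07 (adjusted p = 0.877) and pregnancy minus hormone −0.10 (adjusted p = 0.909) in limma.

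Tnfsf11 encodes RANKL, made by progesterone-responsive luminal cells and also by T cells and lymph node stroma. Its brighter probe set, 1369281_at, was called present on 3 of 5 pregnancy, 1 of 5 hormone and 3 of 5 control arrays. It read 4.80, 4.15, 7.13, 4.27 and 5.73 in pregnancy rats and 4.33, 4.02, 4.24, 4.30 and 4.63 in hormone rats, against 7.15, 4.19, 7.33, 7.05 and 4.25 in control rats. The values fell apart within groups: 3 controls and 1 pregnancy rat were high, and the hormone rats were all low.

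Tnfsf11 means were 5.22 ± 1.24 after pregnancy and 4.30 ± 0.22 after hormone, against 5.99 ± 1.62 in controls (SD, n = 5 each). Hormone minus control was −1.69 (SE 0.68, interval −3.14 to −0.24, adjusted p = 0.193), pregnancy minus control −0.78 (SE 0.68, interval −2.22 to 0.67, adjusted p = 0.513) and pregnancy minus hormone 0.91 (adjusted p = 0.674, limma). The other probe set, 1369282_at, was called present on 1 of 5 pregnancy and 0 of 5 hormone arrays, against 3 of 5 control arrays, so no size of change is given from it. When each array was left out in turn, pregnancy minus control ran from −1.25 (without pregnancy replicate 3) to −0.44 (without control replicate 4). Pregnancy minus hormone was 0.44 without pregnancy replicate 3.

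The 4 high rats were those with the most lymph node and T cell transcripts. On these 4 lymphoid-rich arrays Tnfsf11 lay between 7.05 and 7.33, against 4.02 to 5.73 on the other 11, and its other probe set lay between 5.93 and 6.52, against 4.43 to 5.43. Among the other 11, the next highest were pregnancy replicates 9 and 1, at 5.73 and 4.80, whose lymphoid list stood at 0.59 and 0.38. The list averaged 0.15 after pregnancy and −1.03 after hormone, against 0.88 in controls. Without the 4 arrays, hormone minus control was 0.08 and pregnancy minus control 0.52. These values are no test, since the 4 arrays left out are also the 4 with the highest Tnfsf11, and the probe set was called absent on both controls that remain and on 4 of 5 hormone arrays. With the list as a covariate in all 15 rats, hormone minus control was −0.13 (adjusted p = 0.829, limma). That fit is no test either, since the list sets apart the same 4 arrays, and none of them is a hormone array. Since the arrays form separate clusters on this list, no correlation over all 15 is given.

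**Figure D3:**
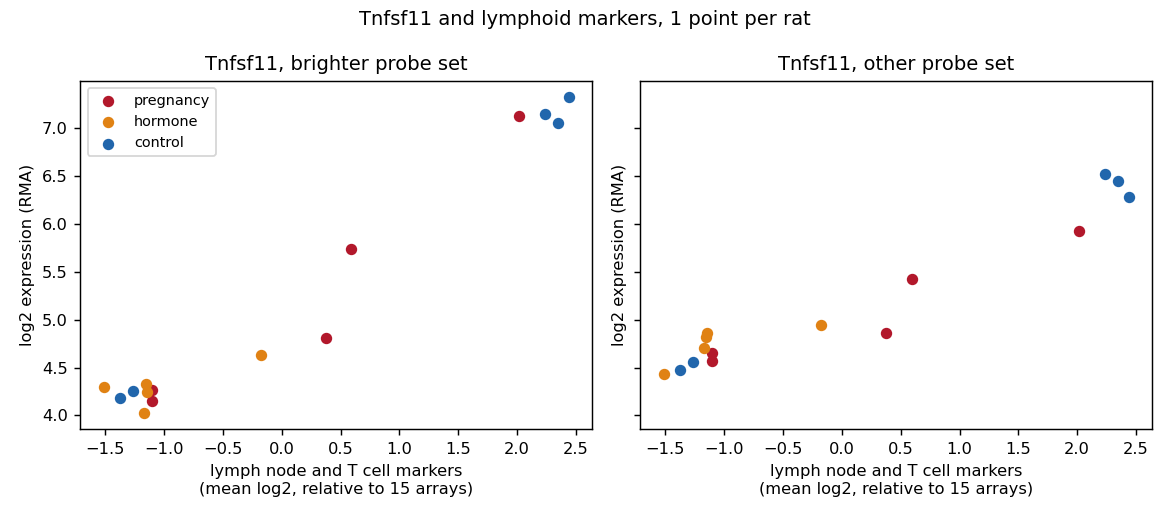
Log2 expression of both Tnfsf11 probe sets against the mean level of 10 lymph node and T cell markers, relative to the 15 arrays, with 1 point per rat in pregnancy, hormone and control groups. The 3 control rats and 1 pregnancy rat with the highest lymphoid level have the highest Tnfsf11 on both probe sets. Hormone rats sit at the low end of both axes.

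Rats of one group differed widely in some of these genes, and some genes varied together. All 21 pairs of 7 genes (without Tnfsf11) were tested over the 15 rats, a family chosen after seeing the data, with 100000 permutations and Benjamini-Hochberg adjustment. The pair of Foxa1 and Cited1 passed, with a Pearson r of 0.86 (permutation p = 3e-05, adjusted p = 0.00063) and a Spearman rho of 0.85 (permutation p = 9e-05, adjusted p = 0.0019). It was 0.83 without the 2 rats farthest from the Foxa1 median, 0.95 on deviations from the group means, and 0.81 on the 11 arrays with less lymphoid RNA.

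Pgr ran the other way. Its r with Foxa1 was −0.67 (permutation p = 0.00763, adjusted p = 0.0699) and its rho −0.73 (permutation p = 0.0028, adjusted p = 0.0294), so this relation passed by rank only. It was −0.61 without the 2 farthest rats. With Cited1, Pgr had an r of −0.64 (permutation p = 0.00998, adjusted p = 0.0699) and a rho of −0.65 (permutation p = 0.0115, adjusted p = 0.0804), past the threshold for neither. On deviations from the group means, 4 of the 21 pairs passed in Pearson's r by the same permutation test: Foxa1 with Cited1 (adjusted p = 0.00021), Gata3 with Wnt4 (r 0.75, adjusted p = 0.0015), Wnt4 with Xbp1 (0.75, adjusted p = 0.0366) and Pgr with Cited1 (−0.73, adjusted p = 0.0272). The pair of Gata3 and Wnt4 had a pooled r of 0.55 (rho 0.57, adjusted p = 0.179 and 0.168). Wnt4 with Xbp1 had a pooled r of 0.42 (rho 0.41, permutation adjusted p = 0.427 and 0.463). That r was 0.14 without the 2 farthest rats and 0.31 without the lymphoid-rich arrays.

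**Figure D4:**
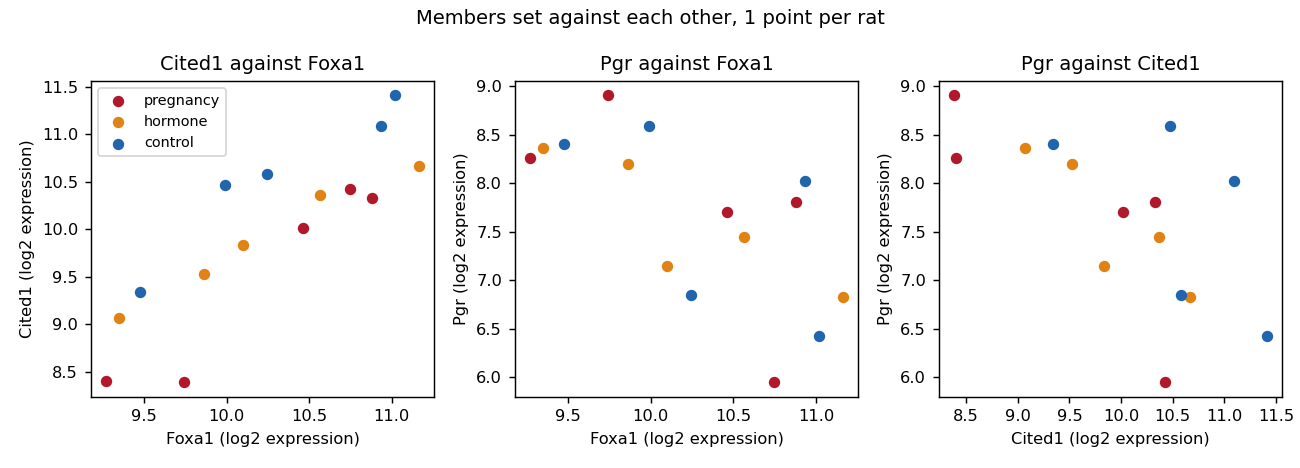
Log2 expression of Cited1 against Foxa1, Pgr against Foxa1 and Pgr against Cited1, with 1 point per rat in pregnancy, hormone and control groups. Cited1 climbs with Foxa1 in all 3 groups, and the rats with the highest Foxa1 are mostly among those with lower Pgr.

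The genes most like a receptor gene over the 15 arrays were looked up among the 9936 or 9937 genes called present on all of them, as a description with no test, since the arrays share tissue make-up. Those most like Pgr were Cited4 (r = 0.93), a relative of Cited1, then Timp3 (0.84), a metalloprotease inhibitor, and Lrp5 (0.82), a WNT coreceptor. Those most like Foxa1 were Spdef (0.93), an ETS factor of luminal and secretory cells, Acrbp (0.93) and Grb7 (0.90), an adaptor of receptor kinases. Esr1 had lower best values, with Golt1b at 0.82, Smad6, an inhibitory SMAD, at 0.79 and Vwa5b2 at 0.77.

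The same 7 genes were set against tissue markers, 21 relations in all with the luminal list and the adipocyte list over 15 rats and the lymphoid list over the 11 rats with low lymphoid level. By permutation, 0 of 21 passed (the lowest adjusted p was 0.0526), and 6 had an unadjusted p under 0.05. Foxa1, Gata3 and Wnt4 had Pearson r of 0.71, 0.62 and 0.63 and rho of 0.62, 0.46 and 0.61 with the luminal list, whose mean was 0.09 ± 0.27 after pregnancy, −0.04 ± 0.47 after hormone and −0.05 ± 0.35 in controls (SD, n = 5 each). Gata3 and Wnt4 both had an r of −0.66 with the adipocyte list (rho −0.56 and −0.54). Without the 2 rats farthest from the list's median, Gata3 with the luminal list was 0.28. It was 0.80 on deviations from the group means and 0.76 on the 11 arrays with less lymphoid RNA. The size of that relation thus depends on the rats kept. On deviations from the group means 7 of the 21 passed. Those were the luminal list with Foxa1, Gata3, Wnt4, Cited1 and Xbp1, and the adipocyte list with Gata3 and Wnt4, by the permutation test. Pgr and Esr1 were not among the 7, with r of −0.21 and 0.03 to the luminal list. The part of tissue make-up in the values of these genes was not tested beyond the covariate fits.

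**Figure D5:**
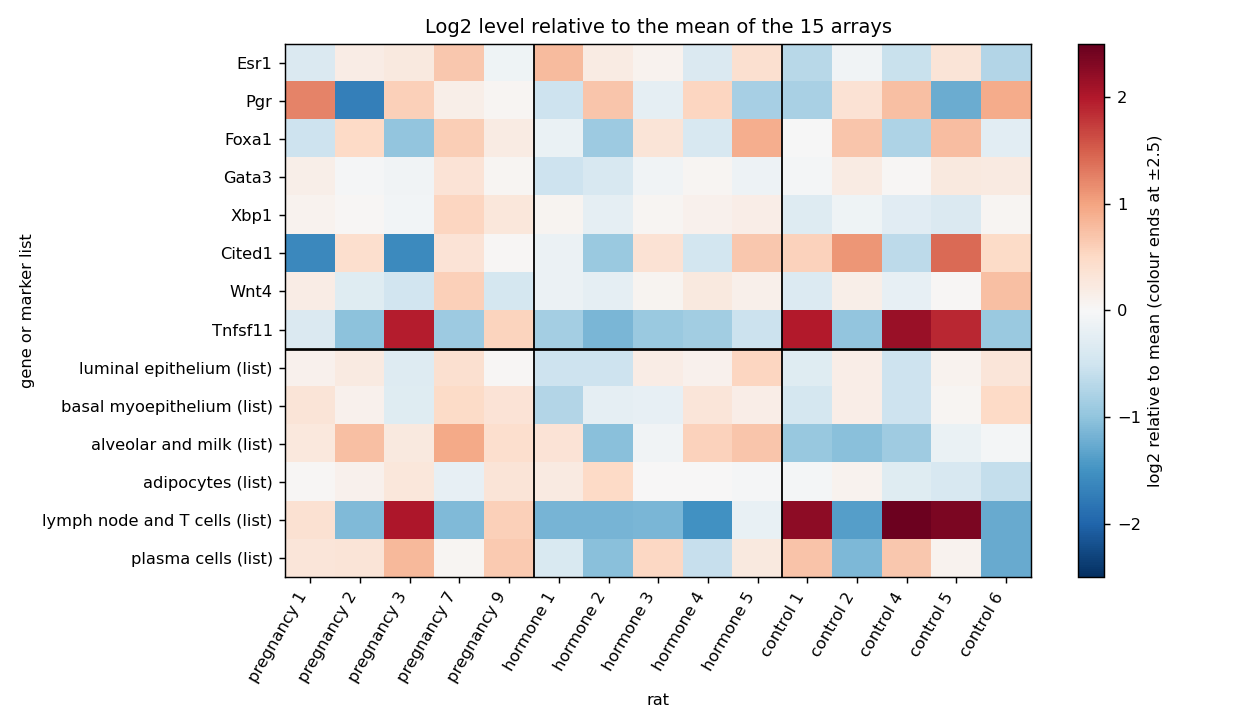
Log2 levels relative to the mean of the 15 arrays, for the 8 genes (upper rows) and 6 tissue marker lists (lower rows) in each pregnancy, hormone and control rat. Red is above and blue below that mean. Foxa1 and Cited1 share their high and low rats, and Tnfsf11 shares its high rats with the lymph node and T cell list.

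Genes around these receptors were read from 8 lists. Each list's count at an unadjusted p under 0.05 stands beside 21.9% of all probe sets for pregnancy minus control and 20.7% for hormone minus control, and each median beside 0.02 and 0.03. Of the other steroid receptors, 10 of 11 were measured and 0 passed in either comparison with control in limma, with 2 at an unadjusted p under 0.05 for pregnancy minus control and 1 for hormone minus control. The median was 0.03 for pregnancy minus control and 0.08 for hormone minus control. Vdr, the vitamin D receptor, read 7.33, 7.53, 6.92, 8.32 and 7.63 in pregnancy rats and 6.73, 6.70, 6.90, 7.21 and 7.49 in hormone rats, against 5.92, 6.87, 6.40, 7.12 and 6.97 in control rats. Of the pregnancy rats, all but replicate 3 lay above every control. Its pregnancy minus control difference was 0.89 (SE 0.26, adjusted p = 0.0977) and hormone minus control 0.35 (adjusted p = 0.444). Pgrmc2, a relative of a membrane progesterone-binding protein, was 0.24 above control after pregnancy and 0.30 after hormone (adjusted p = 0.285 and 0.211). Esr2, the other estrogen receptor, was called present on 0 of 15 arrays.

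Of 11 other hormone-sensing luminal genes, all measured, 0 passed in either comparison with control in limma, with 2 at an unadjusted p under 0.05 in each. The medians were 0.02 for pregnancy minus control and −0.13 for hormone minus control. Prom1, a surface marker of mouse hormone-sensing luminal cells, was 0.71 above control after pregnancy (SE 0.22, adjusted p = 0.107) and 0.72 after hormone (SE 0.22, adjusted p = 0.151). It read 10.65, 10.28, 9.94, 10.23 and 10.16 in pregnancy rats and 10.08, 9.81, 10.80, 9.94 and 10.70 in hormone rats, against 9.55, 10.20, 9.20, 9.18 and 9.57 in control rats. Only control replicate 2 reached the exposed rats. Myb, a transcription factor of estrogen receptor positive cells, stood at −0.31 after pregnancy and −0.32 after hormone, both minus control (adjusted p = 0.152 and 0.174).

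Among estrogen-induced genes, 12 of 13 were measured, and 1 rose in pregnancy minus control (0.116% of all probe sets did) and 0 in hormone minus control in limma, each with 4 at an unadjusted p under 0.05. The one that rose was Ctsd, the lysosomal protease cathepsin D, at 13.16, 13.10, 12.90, 13.20 and 13.31 in pregnancy rats and 12.83, 12.93, 12.84, 12.94 and 13.14 in hormone rats, against 12.63, 12.85, 12.39, 12.59 and 12.52 in control rats. Every pregnancy rat lay above every control, replicate 3 by a small margin, where 4.23% of all probe sets did not overlap. The difference was 0.54 (SE 0.09, adjusted p = 0.0408) for pregnancy minus control and 0.34 (SE 0.09, adjusted p = 0.143) for hormone minus control. Leaving out each array in turn, it stayed between 0.49 and 0.60 and passed in 4 of 15 fits, so the call is close to the threshold. It failed without 11 of them, among them all pregnancy arrays but replicate 3, control replicates 1, 4 and 6 and hormone replicates 1 to 4.

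Myc, a growth factor response gene that estrogen induces, lay at −0.47 in hormone minus control (SE 0.11, adjusted p = 0.124) and −0.25 in pregnancy minus control (adjusted p = 0.211). The median of the estrogen-induced list was 0.08 for pregnancy minus control and 0.17 for hormone minus control. Of the progestin-induced genes, 9 of 10 were measured and 0 passed in limma, with 1 at an unadjusted p under 0.05 in each comparison with control and medians of 0.12 for pregnancy and 0.19 for hormone minus control. That 1 was Calcr, which was called present on 0 of 15 arrays. Zbtb16, a zinc finger factor, stood at 0.32 in pregnancy and −0.0044 in hormone minus control (adjusted p = 0.290 and 0.991), and Sgk1, a kinase induced by steroid hormones, at 0.12 in pregnancy and 0.22 in hormone minus control (adjusted p = 0.610 and 0.358).

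Downstream of RANKL and WNT4, 10 of 12 genes were measured and 0 passed in limma, with 2 at an unadjusted p under 0.05 for pregnancy minus control (median −0.02) and 3 for hormone minus control (median −0.08). Lgr4, the receptor of R-spondins that strengthens WNT signalling, read 9.47, 9.58, 9.32, 10.15 and 9.63 in pregnancy rats and 9.54, 9.32, 9.35, 9.52 and 9.57 in hormone rats, against 8.68, 9.22, 8.81, 9.17 and 9.14 in control rats. Both exposed groups lay above every control, where 4.23% of all probe sets did not overlap for pregnancy and 2.79% for hormone minus control. Lgr4 was named for its small p. The difference was 0.63 (SE 0.14, adjusted p = 0.0697) after pregnancy and 0.46 (SE 0.14, adjusted p = 0.152) after hormone, neither past the threshold. Tnfrsf11a, the RANK receptor, was 0.55 above control after pregnancy (adjusted p = 0.135) and 0.02 after hormone (adjusted p = 0.967). Nfkb2, a subunit of the alternative NF-kappaB pathway, stood at −0.36 in pregnancy and −0.58 in hormone minus control (adjusted p = 0.259 and 0.153). It lay between 9.94 and 10.66 on the 4 lymphoid-rich arrays, against 9.31 to 9.74 on the other 11. The part of lymphoid RNA in Nfkb2 was not tested.

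Receptor coregulators and chaperones had 14 of 16 measured and 0 past the threshold in limma, with 7 at an unadjusted p under 0.05 in each comparison with control, where 21.9% of all probe sets were for pregnancy and 20.7% for hormone. In this list 11 of 14 were lower than control after pregnancy (median −0.14) and 10 of 14 after hormone (median −0.20). Of all probe sets, 45.3% were lower after pregnancy (median 0.02) and 42.0% after hormone (median 0.03). Med1, the Mediator subunit that binds nuclear receptors, stood at −0.13 in pregnancy and −0.36 in hormone minus control (adjusted p = 0.360 and 0.113). Fkbp4, a cochaperone of steroid receptors, was 0.33 above control after pregnancy and 0.05 after hormone (adjusted p = 0.108 and 0.789). The highest values of this list were on the 3 lymphoid-rich control arrays, at 0.15 to 0.19, against 0.02 and −0.07 on the other controls and 0.02 on pregnancy replicate 3, and the part of lymphoid RNA was not tested.

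Steroid metabolism had 13 of 14 genes measured and 0 past the threshold in limma, with 2 and 3 at an unadjusted p under 0.05 for pregnancy and hormone minus control. Above control were 11 of 13 after pregnancy (median 0.12) and 10 of 13 after hormone (median 0.16), against 54.7% and 58.0% of all probe sets. Among those above control after pregnancy were Cyp19a1, Hsd17b2 and Hsd17b7, each called present on 0 of 15 arrays. After hormone, Cyp19a1 and Hsd17b2 were among them. The hydroxysteroid dehydrogenase genes Hsd17b12, Hsd17b10 and Hsd17b4 were 0.32, 0.23 and 0.17 above control after pregnancy and 0.23, 0.20 and 0.26 after hormone (adjusted p from 0.170 to 0.313). Of the XBP1 and unfolded protein response genes, 14 of 14 were measured and 0 passed in limma, with 4 at an unadjusted p under 0.05 for pregnancy and 2 for hormone minus control. Above control were 11 of 14 after pregnancy (median 0.16) and 13 of 14 after hormone (median 0.12), where 54.7% and 58.0% of all probe sets were. Sdf2l1, an endoplasmic reticulum chaperone component, read 10.69, 10.46, 10.37, 10.86 and 10.38 in pregnancy rats and 10.74, 10.17, 10.28, 10.39 and 10.17 in hormone rats, against 10.11, 9.90, 9.95, 9.94 and 10.31 in control rats. Every pregnancy rat lay above every control (4.23% of all probe sets did not overlap there), and the hormone rats overlapped the controls. Its difference from control was 0.51 after pregnancy (SE 0.13, adjusted p = 0.0736) and 0.31 after hormone (adjusted p = 0.193). That of the cochaperone gene Dnajb9 was 0.18 after pregnancy and 0.25 after hormone (adjusted p = 0.351 and 0.230), and Atf6, the stress sensor, was called present on 4 of 15 arrays only. In pregnancy minus hormone, 0 genes of the 8 lists passed in limma, with 0 to 3 per list at an unadjusted p under 0.05.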

How the data were processed

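Per the labels' protocols, Trizol was used for total RNA, of which 80 ng was amplified by NuGEN Ovation V2. The deposited values are the authors' log2 expression per probe set, and RMA, MAS5, GCOS and affy are the tools named in the submitters' processing notes, with versions and genome build not given in the sources used here. The deposited table also holds detection calls with their p-values, and the authors' own log2 fold changes and p-values, whose fit is not described. Its 15 per-sample columns for 5 arrays that match no labelled sample were not used. Both deposited tables held equal values (largest difference 0).

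All 31042 of 31099 probe sets that are not array controls (57 are) were tested, with no filter. Symbols were updated by Entrez identifier against a RefSeq gene table (13762 of 14239 genes). A single limma 3.58.1 model gave each of the 3 groups its mean over the 15 arrays (R 4.3.3, residual df 12, prior df 2.70), two-sided, with Benjamini-Hochberg adjustment over all probe sets and a threshold of 0.05. It was tested on simulated data. Each array is 1 rat, and the number of arrays limits the precision. The genes and lists were chosen with earlier results of these data known. Named genes are the 9 of the set with all their probe sets, and from each list those past the threshold or else the 2 of smallest p in each comparison with control, plus 3 genes most like Esr1, Pgr and Foxa1. Some genes that this rule names are not reported here. List levels are means of the genes' log2 values relative to the 15 arrays. Lists of fibroblast markers (6 of 6 measured) and the other 7 marker lists had 0 genes past the threshold in any comparison in limma. Their counts at an unadjusted p under 0.05 were 0 to 6 for pregnancy minus control, 0 to 9 for hormone minus control and 0 to 3 for pregnancy minus hormone. Of all probe sets, 21.9%, 20.7% and 9.96% were under it. The 6 were among 7 measured milk genes, all 7 higher after pregnancy. The 9 were among 10 measured lymph node and T cell markers, all 10 lower after hormone (median −1.96). Other steps used pandas 2.3.3 and numpy 2.4.6 in Python 3.11.15. Alternatives covered centring, detection filters, array weights, the prior, covariates, probe set choice and arrays left out. Replicate numbers recur across groups, and the main model did not pair rats by them. Correlations of deviations between same-numbered rats ran from −0.25 to 0.38, over 0.1 in 4 of 9 pairs. Whether same-numbered arrays share a batch was not tested.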

Additional observations from a re-analysis of the deposited data

How the results depend on the processing

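No gene of the set passed in any of 31 alternative fits, 15 of them without 1 array, with 0 calls in 744 recomputed values. The lowest adjusted p was 0.0581, for Tnfsf11 in hormone minus control with array weights (−2.16). The sign turned in 56 values. In pregnancy minus control the turned differences were 0.15 (Foxa1), 0.12 (Gata3) and 0.26 (Wnt4) with the adipocyte list as a covariate, −0.71 (Pgr) and 0.52 (Tnfsf11) without the 4 lymphoid-rich arrays, and −0.053 (Pgr) and 0.11 (Gata3) with the mean over all probe sets of a gene. In hormone minus control they were 0.047 (Pgr) and 0.052 (Wnt4) with array weights, 0.17 (Foxa1) and 0.39 (Wnt4) with the adipocyte covariate, and 0.084 (Tnfsf11) without the lymphoid-rich arrays. In pregnancy minus hormone, Foxa1 gave −0.0056 after centring, −0.17 and −0.011 with the luminal and adipocyte covariates, −0.37 without the 3 muscle-rich arrays and −0.054 as a mean over probe sets. Wnt4 and Tnfsf11 gave 0.10 and −0.054 with the lymphoid covariate, Pgr and Wnt4 −0.0031 and 0.00063 without the lymphoid-rich arrays, and Pgr −0.016 as a mean over probe sets. The cause was not tested, and without the lymphoid-rich arrays only control replicates 2 and 6 remained as controls. With the replicate number as a block, 0 genes of the set passed in limma. The turned values were 0.0020 (Wnt4, pregnancy minus control), 0.11 (Pgr) and 0.14 (Wnt4) in hormone minus control, and −0.23 (Foxa1, pregnancy minus hormone). In 18 one-way comparisons (9 pairs, each way), the best match among the 5 rats of the other group had the same number in 7, where chance gives 1 in 5.

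Leaving out each array in turn turned the sign of 10 differences. In pregnancy minus control Pgr ran from −0.24 to 0.51, Foxa1 from −0.33 to 0.13 and Wnt4 from −0.34 to 0.0053. In hormone minus control Pgr ran from −0.37 to 0.17, Foxa1 from −0.36 to 0.091 and Wnt4 from −0.17 to 0.10. In pregnancy minus hormone Pgr ran from −0.16 to 0.58, Foxa1 from −0.20 to 0.25, Wnt4 from −0.27 to 0.00063 and Esr1 from −0.25 to 0.037. Of those that kept their sign, 5 moved by over 1.5 times: Tnfsf11 in pregnancy minus control (−1.25 to −0.44) and pregnancy minus hormone (0.44 to 1.18), Cited1 and Xbp1 in pregnancy minus hormone (−0.61 to −0.099 and 0.052 to 0.20) and Gata3 in pregnancy minus control (−0.12 to −0.013). Over all probe sets, against 61, 9 and 1 as reported, calls ran from 3 to 1430 for pregnancy minus control, 0 to 1884 for hormone minus control and 0 to 9 for pregnancy minus hormone, and from 0 to 1154, 0 to 1374 and 0 to 6 under the other alternatives. Ctsd passed in 12 of 29 alternatives, with differences of 0.45 to 0.60 and an adjusted p of at most 0.580.

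Of relations with tissue lists, 7 passed on deviations from the group means and 1 without the lymphoid-rich arrays, against 0 as reported, and of pairs 4 passed on deviations against 1. The correlation turned without the lymphoid-rich arrays for Esr1 with the luminal list (−0.23), Pgr and Xbp1 with the adipocyte list (−0.19 and −0.35), Pgr with Xbp1 (−0.10) and Cited1 with Xbp1 (0.13). On deviations it turned for Xbp1 with adipocytes (−0.54), for Pgr, Foxa1, Gata3 and Xbp1 with the lymphoid list (−0.11, −0.062, −0.19 and −0.32) and for Cited1 with Xbp1 (0.44). For the lymphoid list the group means included the lymphoid-rich arrays, while the correlation left these arrays out. The turns with that list can come from this offset, so nothing is read from them. Without the 2 farthest arrays it turned for Esr1, Pgr, Gata3 and Cited1 with the lymphoid list (0.42, −0.49, −0.20 and 0.27), Esr1 with Wnt4 (0.12) and Pgr with Xbp1 (−0.066). Signals near background limit Esr1, Tnfsf11 and Greb1, and 5 rats per group limit the rest.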
